A study of Drosophila melanogaster with 4 samples.

Results

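The regions described here are those enriched for the histone demethylase JMJD2A/KDM4A in the 2 Mb of assembled sequence next to the centromere on the chromosome arms 2L, 3L, 3R and X of Drosophila melanogaster. A region was a member when its midpoint lay in 2L 21011545 to 23011544, 3L 22543558 to 24543557, 3R 1 to 2000000 or X 20422828 to 22422827 (FlyBase release 5), whatever its score. Replicate 1 had 830 members among 11489 regions, replicate 2 had 241 among 5780, and the combined list of the series had 696 among 11016. Arm 2R was not analysed here.

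The data came from chromatin immunoprecipitation with sequencing (ChIP-seq) on nuclei of wild-type 3rd instar larvae of the strain Oregon-R, harvested from bottles, with an affinity-purified polyclonal rabbit antibody against JMJD2A/KDM4A. Of 4 samples, 2 were ChIP libraries and 2 input DNA. Region lists of the 2 ChIP libraries and 1 list for the whole series, called combined here, were used. Input libraries were not analysed here. Samples were taken by title, since the descriptions of ChIP replicate 2 and input replicate 1 name the other kind of DNA. Replicate 2 below is thus a ChIP library by its title but not by its description. Chromatin of all larval tissues was mixed, and the labels do not say whether the replicates were separate collections of larvae. No sample is a mutant or carries a transgene, so no loss of KDM4A checks the antibody here.

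The sequence around a fly centromere is packed as heterochromatin, which is rich in repeats, carries methylated lysine in the tail of histone H3 and is bound by heterochromatin protein HP1a. KDM4A is a JmjC-domain enzyme that removes methyl groups from lysines of histone H3, and it is a known partner of HP1a. On each arm the gene-rich euchromatin passes into this pericentromeric heterochromatin before the assembled sequence ends. The windows were therefore read outward from the assembled end, in steps of 100 kb and of 500 kb. All distances below count from that end, the last base of 2L, 3L and X and the first base of 3R. Covered share is the percentage of bases that lie inside a region.

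Over 2 ChIP replicates an exact two-sided sign-flip permutation test of a ratio against equality cannot give a p below 0.5. Values are therefore given for each replicate, and no difference is called significant. Ranges in brackets after a share are its 95% interval by the exact Clopper-Pearson method. They hold for counting error only and treat neighbouring regions as independent. Read depth is unknown from the lists, the lists differ in length, and window lengths include any gaps and unmappable repeats of the assembly.

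**Figure D1:**
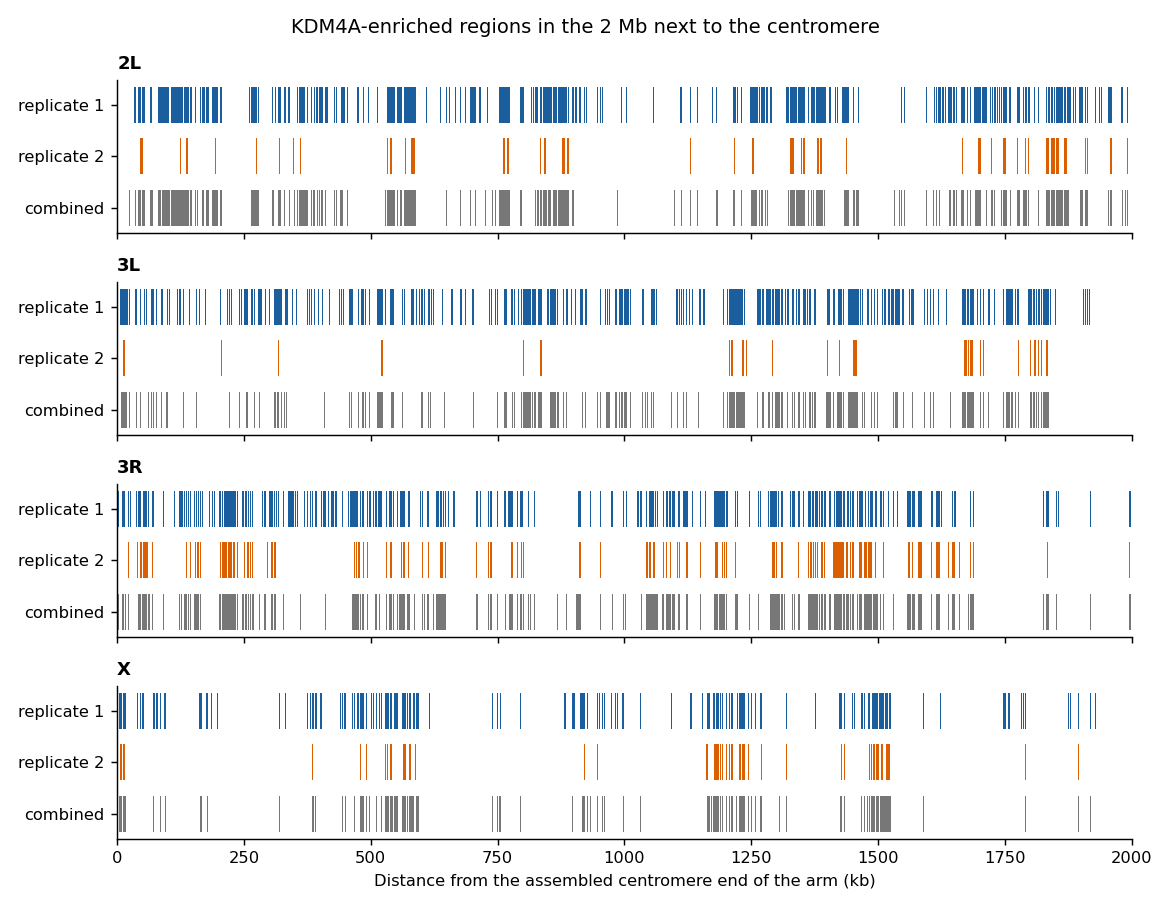
Each bar is 1 enriched region at its distance from the assembled centromere end (x axis, kb), in rows for the 2 replicates and the combined list, with 1 panel per arm. Replicate 1 fills the windows of 2L, 3L and 3R with 213, 249 and 229 regions and the X with 139, while replicate 2 has 52, 28, 115 and 46.

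In replicate 1 the windows of 2L, 3L and 3R were more covered than the rest of their arms and that of the X was less covered, while in replicate 2 only the 3R window was more covered. Pooled over the 4 windows, 29.9% of bases were covered in replicate 1 and 8.06% in replicate 2, against 22.4% and 12.6% in the rest of these arms. The ratio of window to rest was thus 1.33 in replicate 1 and 0.640 in replicate 2, a mean of 0.986 ± 0.490 (SD, n = 2). The replicates fell on opposite sides of equality, and with n = 2 any value between them lies within that spread. In the combined list the ratio was 1.06.

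The arms did not share 1 pattern. For 2L replicate 1 gave 1.66 and replicate 2 gave 0.616, and for 3L they gave 1.45 and 0.283. On 3R it lay above equality in both replicates, at 1.51 and 1.21, a mean of 1.36 ± 0.214 (SD, n = 2). The X lay below equality in both, at 0.723 and 0.454, a mean of 0.589 ± 0.190 (SD, n = 2). Thus 3R and X had ratios on the same side of equality in both replicates, and 2L and 3L did not. Counted as regions per Mb, each arm stayed on the same side of equality in each replicate, with 1.31 and 0.594 on 2L, 1.43 and 0.296 on 3L, 1.48 and 1.26 on 3R, and 0.842 and 0.464 on the X.

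On 2L, replicate 1 stayed near the same level across the window while replicate 2 was lower in each of the 3 inner steps of 500 kb than in the outermost. From the centromere outward, replicate 1 covered 39.1%, 39.2%, 30.2% and 38.1% of the 4 steps. Replicate 2 covered 5.14%, 8.22%, 5.76% and 10.8% of the same steps. Just outside the window, from 2 to 2.5 Mb, the values were 24.1% in replicate 1 and 13.2% in replicate 2. The gap between the replicates was therefore widest in the innermost 500 kb, where replicate 2 covered 13.2% as many bases as replicate 1, against 54.9% just outside the window. In steps of 100 kb, replicate 1 ran from 5.75% to 68.4% with a median of 39.1%, and replicate 2 from 0 to 22.3% with a median of 6.70%. The highest step of replicate 1 lay 100 to 200 kb from the end, where replicate 2 covered 7.79% and the combined list 66.8%. Blocks of high coverage alternated with sparse stretches, such as 1000 to 1100 kb, at 6.89% in replicate 1 and 0 in replicate 2.

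On 3L, the contrast between the replicates was the widest of the 4 arms. Replicate 1 covered 32.8%, 34.0%, 41.6% and 29.2% of the 4 steps of 500 kb from the centromere outward. Replicate 2 covered 1.47%, 1.46%, 5.04% and 6.42%. In the innermost 500 kb replicate 2 thus had 4.48% as many covered bases as replicate 1, and just outside the window, from 2 to 2.5 Mb, 53.8%. That outer step was itself sparse, at 8.96% and 4.82%. In steps of 100 kb replicate 1 was at least 6.33%, with a median of 33.0%, whereas 8 of the 20 steps held no base of a replicate 2 region. Only 3 replicate 2 regions lay within 500 kb of the end. The outermost of them, at 24223972 to 24225901, and the one nearest the end, at 24527824 to 24531815, lay wholly inside replicate 1 regions. The one at 24337476 to 24338890 had no replicate 1 counterpart.

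On 3R, both replicates were covered most 0 to 0.5 and 1 to 1.5 Mb from the end. Replicate 1 covered 44.2%, 26.1%, 41.5% and 15.0% from the centromere outward, and replicate 2 covered 17.9%, 9.35%, 25.2% and 8.80%. Both replicates thus had the same pair of richer steps, and 1 of 20 steps of 100 kb was free of replicate 2. The step of 1400 to 1500 kb was the highest of the window in all 3 lists, at 58.4% and 49.1% in the replicates and 68.1% in the combined list. Within 500 kb of the end, replicate 2 still had 40.6% as many covered bases as replicate 1. Just outside the window, at 2 to 2.5 Mb, the covered shares were 20.3% and 9.43%, and replicate 2 had 46.4% as many bases.

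The X window was patchy in every list. Replicate 1 covered 18.6%, 19.4%, 19.9% and 9.46% of its steps of 500 kb, and replicate 2 covered 2.48%, 5.57%, 11.7% and 3.61%. In steps of 100 kb replicate 1 ran from 0 to 47.2% with a median of 14.4%, and replicate 2 from 0 to 22.1% with a median of 2.16%. The step of 200 to 300 kb held no region in any of the 3 lists. Clusters at 500 to 600 kb, 1100 to 1300 kb and 1400 to 1600 kb were present in both replicates. At 500 to 600 kb, for example, the covered share was 47.2% in replicate 1 and 19.6% in replicate 2.

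**Figure D2:**
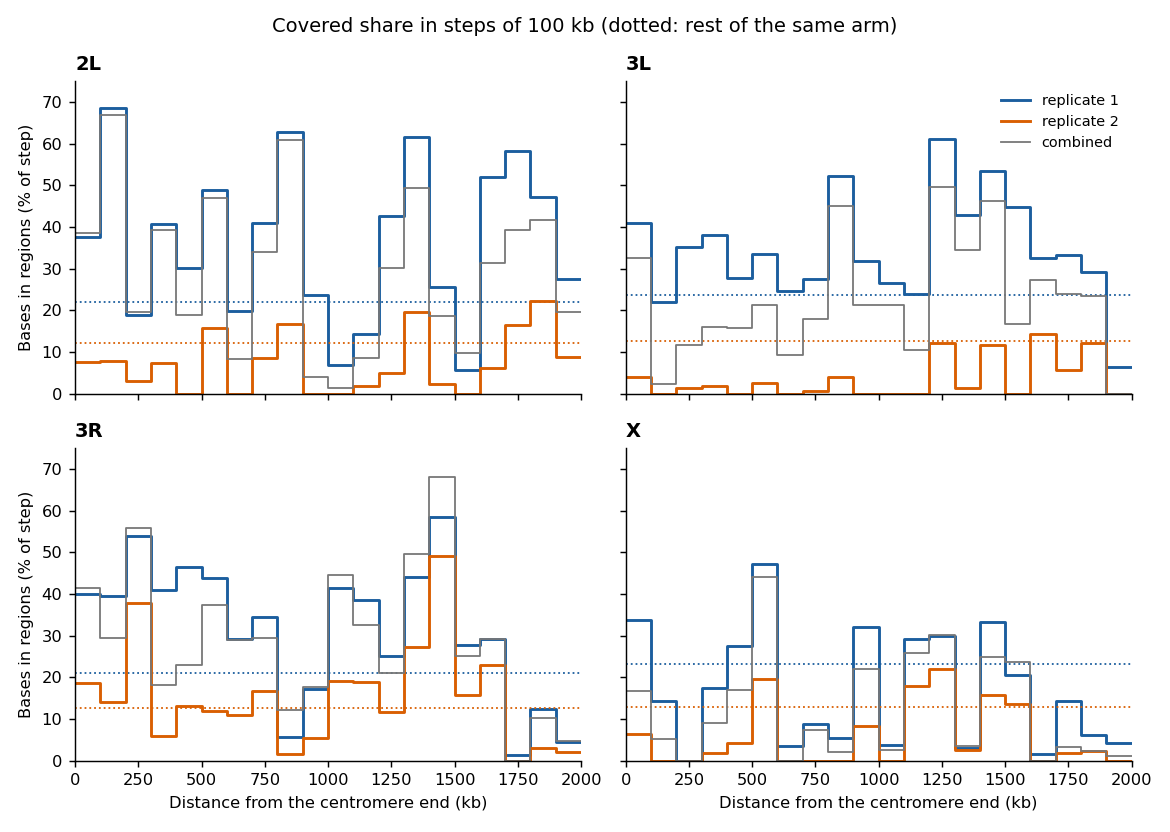
Covered share (y axis, percent of each 100 kb step) against distance from the centromere end (x axis, kb), with 1 panel per arm, coloured lines for replicates 1 and 2 and a grey line for the combined list. Dotted lines give each replicate's share in the rest of the same arm: replicate 2 lies below its dotted line over most of 2L, 3L and X, and crosses it several times on 3R.

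Pooled over the 4 arms, the innermost 500 kb minus the outermost 500 kb of the windows came to 10.7 percentage points in replicate 1 and -0.64 in replicate 2. The first value owed much to 3R, where it was 29.1 points, against 0.99 on 2L, 3.55 on 3L and, for the X, 9.18. In replicate 2 it was 9.15 on 3R and negative on the other arms, with -5.61 for 2L, -4.96 for 3L and -1.13 for the X. Without 3R the pooled values were 4.57 and -3.90. The sign in replicate 2 and, on 2L and 3L, in replicate 1 changed under at least 1 alternative, except on 3L in replicate 2. For replicate 2 on 2L the only such alternative put the combined list in place of the replicate. With its own list the value on 2L stayed below 0. The values of replicate 1 pooled, on 3R and on the X stayed above 0 under every alternative run, and that of replicate 2 on 3L stayed below 0.

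The replicates were also compared by the number of bases each list covered, whether or not at the same places. Bases of replicate 2, as a percentage of those of replicate 1, came to 20.1%, 20.7%, 35.8% and 32.2% in the 4 steps of 500 kb from the centromere outward. From 2 to 5 Mb the 6 further steps gave 48.2% to 59.5%, and the rest of the arms as a whole 56.1%. Every step of the windows, pooled over arms, was below every step outside them up to 5 Mb. This also held on 2L and 3L taken singly, but not on 3R and the X. On 3R the steps of 1 to 1.5 and 1.5 to 2 Mb gave 60.7% and 58.5%, against 27.5% at 3 to 3.5 Mb. On the X the step of 1 to 1.5 Mb gave 58.6%, against 48.1% at 3 to 3.5 Mb. By arm, the window gave 20.4% on 2L, 10.5% on 3L, 48.3% on 3R and 34.6% on the X, and the rest of the same arms 54.9%, 53.6%, 60.4% and 55.1%. The window was lower on each of the 4 arms, least so on 3R.

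Region by region, 220 of the 830 replicate 1 members (26.5%, 23.5 to 29.6) shared at least 1 bp with a replicate 2 region. With overlap of at least 50% of both lengths required, the share was 17.0% in the windows and 39.8% in the rest of the 4 arms, and it was 11.3% on 2L and 3.61% on 3L. At 1 bp, the share was 45.8% over the whole replicate 1 list and 52.1% (50.9 to 53.2) in the rest of the 4 arms. On 2L it was 22.5% (48 of 213, 17.1 to 28.7) and on 3L 9.64% (24 of 249, 6.27 to 14.0). On 3R 46.7% were found (107 of 229, 40.1 to 53.4), and on the X 29.5% (41 of 139, 22.1 to 37.8). In the rest of the same arms these shares were 50.1%, 50.0%, 54.6% and 53.4%. At 1 bp, counting intervals of window and rest were apart on 2L, 3L and X, and they overlapped on 3R (52.4 to 56.8 in its rest).

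On 2L, 3L and X the innermost step had the lowest share, and on 3L the share was higher in each further step. On 3L, 2 of 63 replicate 1 regions were found within 500 kb of the end (3.17%), then 3 of 65, 7 of 61 and 12 of 60 (20.0%, 10.8 to 32.3) in the following steps, and 8 of 19 from 2 to 2.5 Mb (42.1%, 20.3 to 66.5). On 2L the share was 17.3% (8.23 to 30.3), 20.8% (10.8 to 34.1), 18.2% (8.19 to 32.7) and 31.2% (20.2 to 44.1) in the 4 steps. Just outside it was 46.7% (31.7 to 62.1). On the X it was 12.8% (4.30 to 27.4), 25.0%, 47.5% and 35.0% in the 4 steps, and 60.6% (42.1 to 77.1) just outside. On 3R it was 40.0% in each of the inner steps and 54.2% and 56.2% in the outer ones, and 37.5% just outside, the lowest of these 5 steps. Over 2L, 3L and X, 40 of 312 regions were found in the inner 1 Mb (12.8%, 9.32 to 17.0) and 73 of 289 in the outer 1 Mb (25.3%, 20.4 to 30.7).

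**Figure D3:**
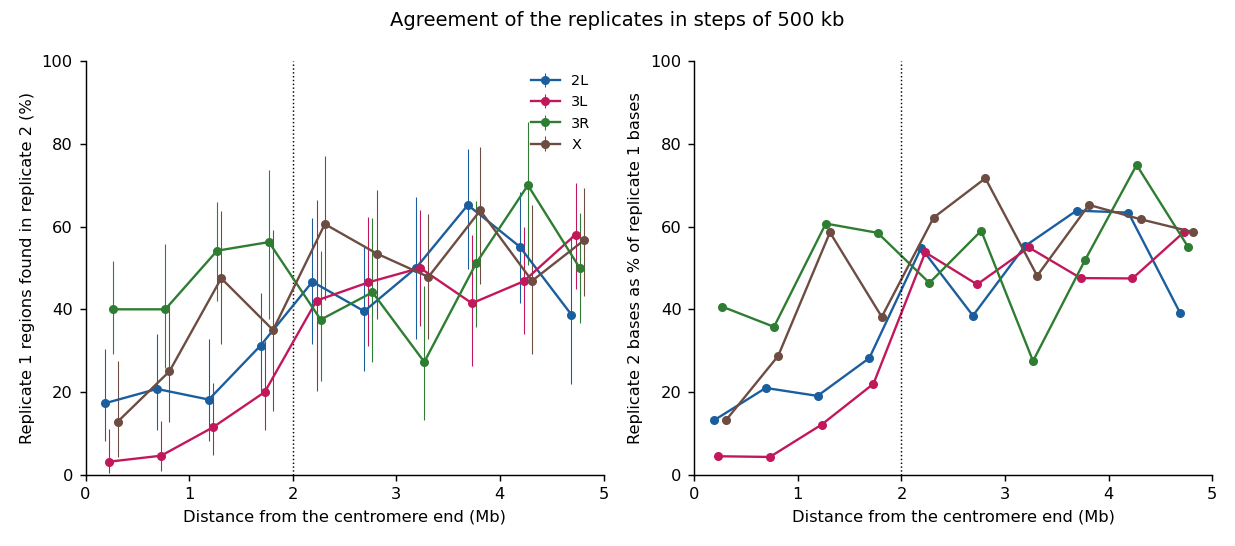
Left, share of replicate 1 regions that touch a replicate 2 region (y axis, percent, bars are exact 95% intervals), and right, replicate 2 bases as a percentage of replicate 1 bases, in steps of 500 kb against distance from the centromere end (x axis, Mb), with 1 line per arm. The dotted line marks the 2 Mb limit; 3L starts at 3.17% and 4.48% and 3R at 40.0% and 40.6% in the innermost step.

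Most replicate 2 members touched a replicate 1 region, as in the whole list. Replicate 1 touched 230 of the 241 (95.4%, 92.0 to 97.7), against 91.8% over the whole replicate 2 list. The share was 58.5% with overlap of at least 50% of both lengths, and 70.1% with replicate 1 cut to as many regions as replicate 2. By arm this was 51 of 52 on 2L, 26 of 28 on 3L, 109 of 115 on 3R and 44 of 46 on the X. Of the bases of replicate 2 members, 87.4% lay inside replicate 1 regions. The 11 without a counterpart were 1412 to 2820 bp wide, and 6 of them lay on 3R. Where the lists met, replicate 2 covered a median of 52.8% of the replicate 1 region on 2L, 53.6% on 3L, 79.3% on 3R and 81.8% on the X. The median covered part was thus smaller on 2L and 3L than on 3R and X. The replicate 1 regions found were also wider there, with medians of 5110 bp on 2L and 4067 bp on 3L. On 3R the median was 2698 bp and on the X 3023 bp. The part of this width in the difference was not tested.

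Steps of 100 kb gave the same picture. Replicate 1 bases with no replicate 2 base occurred in 21 of the 80 steps of the windows, against 9.61% of the 978 steps of the 4 arms. These were 8 of 20 on 3L, 7 on the X, 5 on 2L and 1 on 3R. Steps with at least 20% coverage in replicate 1 and none in replicate 2 were 0.920% of the 978, or 9 steps, and all 9 lay in the windows, 7 on 3L and 2 on 2L. The most covered of them was 3L 1500 to 1600 kb from the end, at 44.7% in replicate 1. No step of the windows had more bases in replicate 2 than in replicate 1, and 6.24% of steps in the rest of the arms did. Across the 20 window steps of an arm, covered shares of the replicates correlated with r = 0.76 (rho = 0.79) on 2L, 0.48 (0.60) on 3L, 0.80 (0.76) on 3R and 0.81 (0.81) on the X. In the rest of the same arms r was 0.87, 0.85, 0.84 and 0.81. Pooled over arms, r was 0.60 (rho = 0.66) across the 80 window steps and 0.84 (rho = 0.86) across the 898 other steps. These are descriptions over neighbouring steps of the same 2 libraries.

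On each arm the longest stretch without replicate 2 was longer than the longest without replicate 1. Replicate 2 had 241 members and replicate 1 had 830, and the part of this difference in number was not tested. On 3L, 23337162 to 23706785 (370 kb) held no replicate 2 region and 42 of replicate 1, which covered 29.4% of it. On the X, 22038773 to 22406463 (368 kb), 16.4 to 384 kb from the end, held 21 replicate 1 regions over 12.7% of its length. On 2L, 21882648 to 22120015 (237 kb) held 19 replicate 1 regions over 16.3%. On 3R the longest such stretch was 1835684 to 1995659 (160 kb), with 3 replicate 1 regions. The longest stretches free of replicate 1 spanned 78.8 kb on 2L (21465504 to 21544343), 82.8 kb on 3L (22543558 to 22626400), 95.9 kb on 3R (1689461 to 1785338) and 122 kb on the X (20676597 to 20798520), and none of them held a replicate 2 region. The 3L stretch began at the limit of the window.

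Width went with recovery, but within each width class up to 10 kb regions were still found less often in the windows. The median width of replicate 1 members was 2150 bp, and 2178 bp in the rest of the arms. Members found in replicate 2 had a median of 3098 bp and the others 1888 bp. Of members under 2 kb, 27 of 367 were found (7.36%, 4.90 to 10.5), against 19.9% (18.5 to 21.4) in the rest of the arms. From 2 to 5 kb it was 134 of 370 (36.2%, 31.3 to 41.3) against 70.1% (68.6 to 71.5), and from 5 to 10 kb 43 of 75 (57.3%, 45.4 to 68.7) against 88.2% (85.3 to 90.8). Over 10 kb, 16 of 18 were found (88.9%, 65.3 to 98.6) against 92.3% (83.0 to 97.5), where the intervals overlapped. On 2L, 3L and X the difference from 2 to 5 kb was wider, 56 of 246 (22.8%, 17.7 to 28.5) against 68.7%. On 3R it was 78 of 124 (62.9%, 53.8 to 71.4) against 73.6% (70.9 to 76.2). The intervals overlapped there, as they did on 3R in the other width classes.

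**Figure D4:**
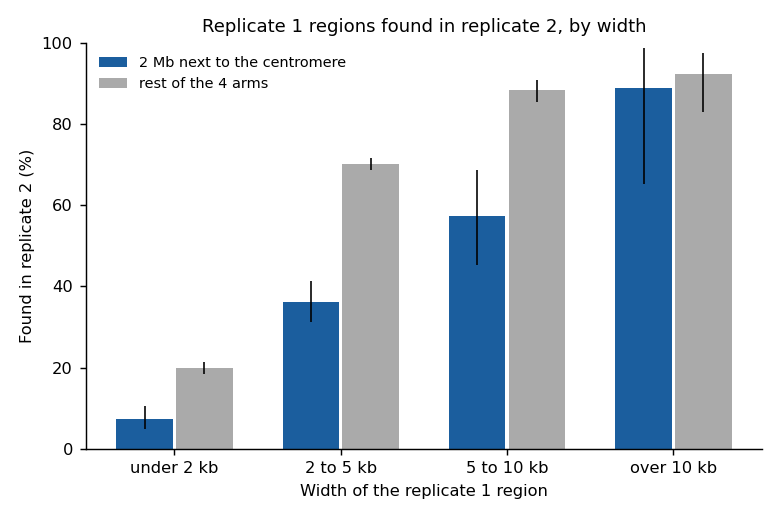
Share of replicate 1 regions found in replicate 2 (y axis, percent, with exact 95% intervals) by width of the region (x axis), for the 4 windows (blue) and the rest of the same arms (grey). The windows lie below the rest in the 3 classes up to 10 kb, at 7.36%, 36.2% and 57.3% against 19.9%, 70.1% and 88.2%, and the intervals meet over 10 kb.

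Most wide regions lay on 2L. Regions over 10 kb made up 1.28% of the whole replicate 1 list, and 18 of the 830 members were of this size. Of these, 12 lay on 2L, 4 on 3L, 2 on 3R and 0 on the X, and on 2L they held 21.5% of the bases of member regions, against 4.60% in the rest of that arm. The widest was 2L 22421372 to 22440415 (19.0 kb, score 1.66), 581 kb from the end, which 2 replicate 2 regions covered to 44.2%. Of the 18, replicate 2 touched 16 and covered a median of 33.8% of their length. The untouched ones were 2L 22908438 to 22924144 (15.7 kb) and the widest region of the 3L window, 3L 23313482 to 23328568 (15.1 kb, score 1.12). On 3R the widest, 1416203 to 1428123 (11.9 kb, score 1.17), lay wholly inside the only member of replicate 2 over 10 kb, 1415984 to 1428463 (12.5 kb, score 0.88). On the X the widest was 20922469 to 20932189 (9.72 kb, score 1.13), covered to 71.6% in replicate 2. The combined list had 17 members over 10 kb, 11 of them on 2L, and such regions were 1.47% of that whole list. In the whole replicate 2 list they were 0.502%. The widest combined member, 2L 22119972 to 22141920 (21.9 kb, score 1.10), overlapped 3 regions of each replicate, which covered it to 95.6% and 46.2%.

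The authors gave each region an enrichment score on an unnamed scale, so scores were compared only within a list. In replicate 1 the median score was 0.90 over the members, 0.78 in the rest of the 4 arms and 0.83 over the whole list. It was higher in the inner than in the outer 1 Mb on each arm, at 0.92 and 0.83 on 2L, 1.08 and 0.87 on 3L, 0.81 and 0.74 on 3R, and 1.02 and 0.94 on the X. On 3L the steps of 500 kb gave medians of 1.16, 0.97, 0.94 and 0.78 from the centromere outward, and 0.78 just outside the window. Replicate 2 gave no such order, with pooled medians of 0.67 in the inner and 0.75 in the outer 1 Mb. Its inner median was above the outer one on 2L (0.84 and 0.75) and on 3L (1.03 from 6 regions, and 0.64), and below it on 3R (0.59 and 0.76) and the X (0.70 and 0.94). The pooled difference was 0.10 in replicate 1 and -0.08 in replicate 2, smaller than the SD of 0.13 between these values. Among the 50% of replicate 1 regions with the highest scores the pooled difference was 0.013, and it was below 0 on 3R and the X.

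High scores were about as frequent in the windows as in the whole lists. Of replicate 1 members, 86 of 830 (10.4%, 8.37 to 12.6) were in the top 10% of scores of their list, where the whole list has 10.0% by construction. In replicate 2 it was 28 of 241 (11.6%, 7.86 to 16.4) and in the combined list 63 of 696 (9.05%, 7.03 to 11.4). On the X the shares were 14.4% (9.02 to 21.3), 19.6% (9.36 to 33.9) and 16.8% (10.1 to 25.6), and on 3R 6.99% (4.05 to 11.1), 8.70% (4.25 to 15.4) and 6.16% (3.32 to 10.3). Of these 86 members of replicate 1, 54 lay in the inner 1 Mb, which held 437 of the 830 members.

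**Figure D5:**
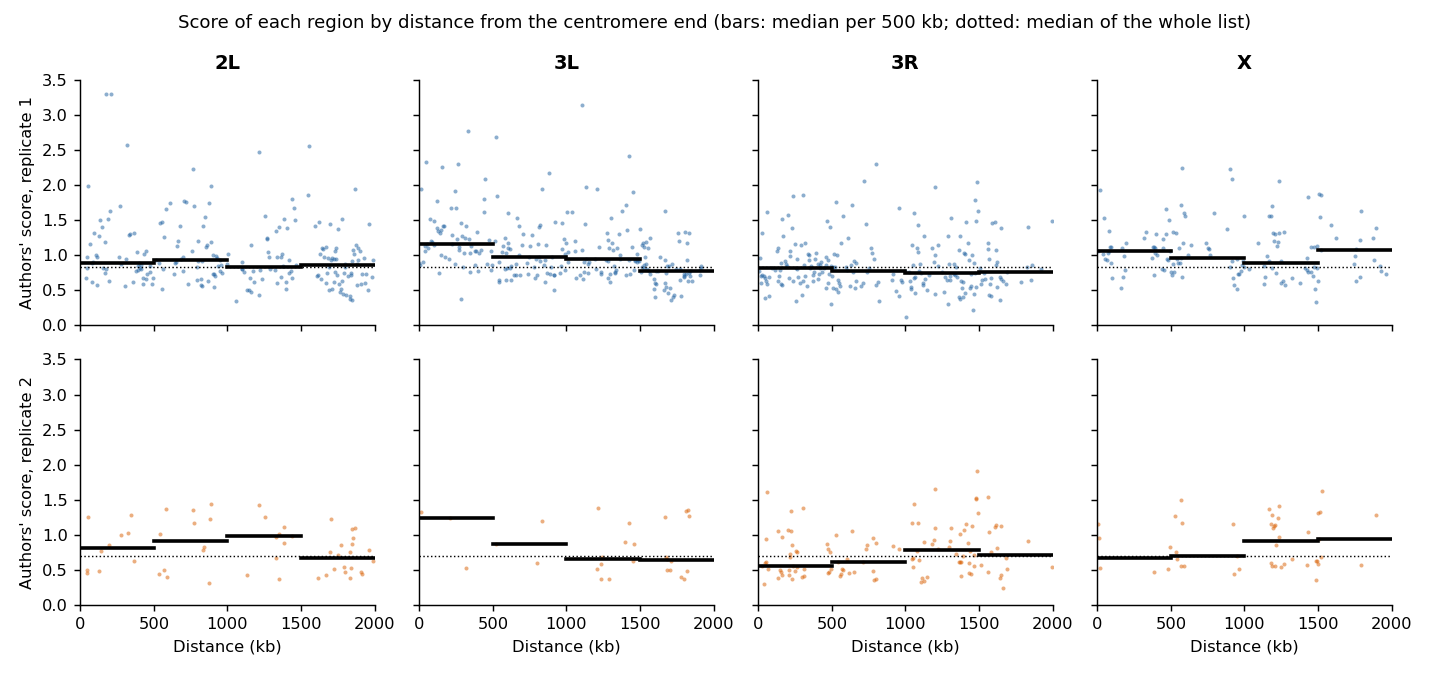
Authors' score (y axis, scale not named in the lists) of each member against distance from the centromere end (x axis, kb), replicate 1 above and replicate 2 below, with 1 column per arm. Black bars are medians per 500 kb and dotted lines the median of the whole list (0.83 and 0.69): replicate 1 on 3L steps from 0.78 to 1.16 toward the centromere.

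The best-scoring member of replicate 1 differed in kind from its widest ones. On 2L, a pair of short regions shared the top score of 3.29, and the one nearer the centromere, 22838216 to 22839609 (1394 bp), was touched by neither other list. On 3L the highest was 23433877 to 23435635 (1759 bp, score 3.14), not touched by replicate 2. By contrast, on 3R 793711 to 799538 (5.83 kb, score 2.29) was covered to 41.9% by replicate 2, and on the X 21843946 to 21847604 (3.66 kb, score 2.23) to 91.2%. The best-scoring members of replicate 2 each touched replicate 1. They were 2L 22120016 to 22124283 (score 1.44), 3L 23330131 to 23333773 (1.38), 3R 1483040 to 1487920 (1.91) and X 20898247 to 20900713 (1.63). Replicate 1 covered them to 82.6%, 100%, 79.2% and 100%.

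The distance of the innermost region from the last assembled base differed between arms and between replicates. On 3L the innermost replicate 1 region, 24542517 to 24544359, ran 802 bases past the stated end of the arm, and bases past the end were not counted. On 3R it was 1806 to 4014, on the X 22412935 to 22419336 and on 2L 22974968 to 22977553. Their midpoints lay 0.12, 2.91, 6.69 and 35.3 kb from the end. Of these, the X region was covered to 38.4% by replicate 2, whose own innermost region there was 22413957 to 22416416 (score 1.16), and the other 3 were not touched. The innermost replicate 2 regions lay 13.7 kb from the end on 3L, 22.9 kb on 3R and 43.2 kb on 2L (22967481 to 22969250), each wholly inside a replicate 1 region.

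Support in the combined list followed the same order of arms. Of its 696 members, 198 (28.4%) touched both replicates. Replicate 1 alone was touched by 401 (57.6%, 53.8 to 61.3), replicate 2 alone by 7 (1.01%, 0.405 to 2.06), and 90 had no counterpart at all (12.9%, 10.5 to 15.7). Over the whole combined list these shares were 44.6%, 38.8%, 3.72% and 12.8%. Those in both were 11.1% on 3L (6.97 to 16.4), 21.1% on 2L (15.6 to 27.6), 38.6% on the X (29.1 to 48.8) and 46.0% on 3R (39.1 to 52.9). In replicate 1 alone the share was 78.4% on 3L (71.9 to 84.0) and 40.3% on 3R (33.6 to 47.2). Of the 7 in replicate 2 alone, 6 lay on 3R and 1 on the X. Taking 3 counts of the total as the limit, the count of 0 among 194 members on 2L allows a share of up to 1.55%, and that among 190 on 3L up to 1.58%. The exact Clopper-Pearson upper bounds are 1.88% and 1.92%.

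Combined members in both replicates had a median width of 3556 bp and a median score of 0.85, and those in replicate 1 alone 1643 bp and 0.46. A long region can touch another more easily, so width and support are linked by construction. On each of the 4 arms the best-scoring combined member was found in neither replicate. These were 2L 22661724 to 22662724, 3L 24134036 to 24135334, 3R 898178 to 899190 and X 21668266 to 21669266, 1001 to 1299 bp wide and with scores of 1.99 on the X to 3.96 on 3L. No region of either replicate was narrower than 1301 bp, whereas the combined list began at 1001 bp. Of the 90 members in neither replicate, 60 were narrower than 1301 bp. Of the 10 combined members with a score of at least 2, 7 were in neither replicate, 3 in replicate 1 alone and 0 in both. No share over the whole combined list is given for these counts by score and width. They are therefore not read as traits of the windows. In turn, the combined list held 576 of the 830 replicate 1 members (69.4%, 66.1 to 72.5), against 79.6% over the whole replicate 1 list and 82.7% (81.8 to 83.6) in the rest of the arms. It held 234 of the 241 replicate 2 members (97.1%, 94.1 to 98.8), against 97.6% over the whole list.

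Beyond the assembled arm ends, the heterochromatin scaffolds of the same chromosomes, 2LHet, 3LHet, 3RHet and XHet, are separate pieces whose distance from the arms is not given. Replicate 1 covered 25.3% of their 5.65 Mb and replicate 2 covered 1.86%, so replicate 2 had 7.34% as many bases. Of their 520 replicate 1 regions, 40 were found in replicate 2 (7.69%, 5.55 to 10.3). The innermost 500 kb of 3L, at 32.8% and 1.47%, thus lay near 3LHet, at 27.6% and 2.35%. On chromosome arm 3R the innermost 500 kb, at 44.2% and 17.9%, had higher values than 3RHet, at 23.6% and 1.07%. On 2L the innermost step had 39.1% and 5.14%, and 2LHet 19.6% and 2.78%, and on the X the values were 18.6% and 2.48% against 28.0% and 3.85% on XHet. The median replicate 1 score on 3LHet was 1.12, near the 1.16 of the innermost 500 kb of 3L. On 3RHet it was 1.23, against 0.81 in the innermost 500 kb of 3R.

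The limit of 2 Mb is a fixed distance. Just inside and just outside it on 2L, replicate 1 had 21017872 to 21021273 (score 0.92) and 21008268 to 21010004 (0.52). On 3L these were 22626401 to 22628333 (0.81) and 22524372 to 22525796 (0.93), on 3R 1995560 to 1998100 (1.49) and 2020551 to 2022052 (0.59), and on the X 20460866 to 20462205 (0.73) and 20394267 to 20397245 (0.98).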

How the data were processed

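The submitters' processing notes name the aligner Bowtie 0.12.7. Per the file headers, positions are of FlyBase release 5. The deposited lists give each enriched region a start, an end and the authors' enrichment score. How regions were called, whether input reads entered, and how the combined list was made are not stated in the labels or headers. Samples were grouped by title. The combined list holds 1 row typed as depleted, which was left out. No genes or sequences of that release were used here.

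Regions were assigned by midpoint, and bases were counted once, up to the arm length in the file headers. Found in another list means at least 1 bp shared. Steps count from the centromere end. Overlap, coverage and gap code was tested on simulated lists (Python 3.11.15, numpy 2.4.6, scipy 1.17.1, matplotlib 3.10.9). Named regions were, per arm and list, the widest, the best-scoring and the one nearest the centromere, plus the longest region-free stretch per replicate. Regions over 10 kb, those missed by replicate 1 and those of replicate 2 near the end of 3L were named after their values were seen. Depth is unknown from the lists. Members and lists were chosen with earlier results of these data known. Alternatives were other score limits, overlaps, windows, step lengths, lists and arms.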

Additional observations from a re-analysis of the deposited data

How the results depend on the processing

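Leaving out 3R was chosen after seeing the data. For the ratio of window to rest, a crossing of equality was not counted as a change of sign. Over the 4 arms, 39 of 56 alternative values stayed within the error without a counted change of sign, 13 moved beyond it and 4 changed sign. That error was the 95% interval for shares of regions found. For covered shares and scores it was 1 SD over the pair of replicates, and it is large where they differ, so the count does not measure stability. The mean ratio of window to rest, 0.986, ran from 0.640 to 1.33 over single replicates. It was 1.16 among the 50% of regions with the highest scores, 1.12 without X and 1.06 in the combined list. With replicate 1 cut to as many regions as replicate 2 it was 1.15. Under the other alternatives that used both replicates it stayed below equality. The inner minus outer covered share of replicate 2, -0.64 points, became 7.21 in the combined list and 2.35 with steps of 250 kb. Its inner minus outer score, -0.08, became 0.025 in the combined list and 0.11 without 3R. By arm, the covered-share difference of replicate 1 changed sign without regions over 10 kb on 2L (-9.59) and 3L (-1.96), and on 3L also in the combined list (-2.70) and with steps of 1 Mb (-2.02). That of replicate 2 changed sign in the combined list on 2L (8.34) and the X (3.53), with steps of 250 kb on the X (0.79) and with steps of 1 Mb on 3R (-3.35). The score difference of replicate 1 changed sign among the 50% of regions with the highest scores and with replicate 1 cut to as many regions as replicate 2, on 3R (-0.077 in both) and the X (-0.10 in both), in the combined list on 3R (-0.054) and over the nearest and farthest 500 kb on the X (-0.022). That of replicate 2 did so among the 50% with the highest scores on 3L (-0.033) and in the combined list on the X (0.043). For these changes the cause was not tested.

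Replicate 1 members found in replicate 2, 26.5%, became 22.9% among the 50% with the highest scores, 17.0% at 50% of both lengths, 20.6% and 31.8% with windows of 1 and 3 Mb, 30.7% with replicate 1 reduced and 18.8% without 3R. In the rest of the arms those with the highest scores gave 52.8%, 50% of both lengths 39.8% and the reduced list 69.1%, so the windows stayed below the rest under these settings, on each of the 4 arms. Replicate 2 members found in replicate 1, 95.4%, became 91.1%, 58.5% and 70.1% among the 50% with the highest scores, at 50% of both lengths and with replicate 1 reduced. Combined members in both replicates, 28.4%, became 19.4% at 50% of both lengths, 21.8% and 33.1% with windows of 1 and 3 Mb and 20.8% without 3R. No paired analysis was possible because only ChIP libraries entered, so there was no other group to pair them with by replicate number. The lists give no read depth, and its part in the difference between replicates was not tested.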
